A study of Mus musculus with 6 samples.

Results

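The zinc-finger transcription factors Klf2, Klf4, Klf6, Klf7, Klf13, Egr1, Egr2 and Egr3 and the EGR corepressors Nab1 and Nab2 were examined for changes in chromatin accessibility between MLL-ENL–transformed cells with and without C/EBPα and C/EBPβ. Every region of the authors' deposited comparison that overlapped the annotated body of 1 of these 10 genes, extended by 50 kb on each side, was taken. The rule found 18 of the 10016 listed regions, at 7 of the 10 genes, and no region at Klf2, Egr1 or Nab1. Accessibility was measured by ATAC-seq, in which the Tn5 transposase cuts open DNA and read numbers over a region reflect how open it is.

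The cells were hematopoietic stem and progenitor cells of mouse fetal liver, immortalized by retroviral transfer of the MLL-ENL fusion oncogene and kept in culture with IL-3. WT denotes such cells with intact Cebpa and Cebpb, which derive from animals with loxP-flanked alleles (Cebpa fl/fl, Cebpb fl/fl). dKO denotes Cebpa KO, Cebpb KO cells of the same origin, obtained as surviving single-cell clones after TAT-Cre treatment and carrying a GFP vector. Both groups carried MLL-ENL, and each had 2 libraries of sorted cells, which no source used here assigns to separate cultures. The study reports strong expression of C/EBPε, a further C/EBP family member, in all its dKO clones. The WT labels name no vector, so that genotype, C/EBPε expression, GFP vector, Cre treatment and clonal selection cannot be told apart here. A further group, in which dKO cells expressed rat C/EBPβ LAP*, was not analysed here.

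Krüppel-like factors (KLF) bind GC-rich sequences and CACCC boxes through zinc fingers at their carboxyl end. In the blood system Klf2 is known for quiescence of lymphocytes and restraint of myeloid activation, Klf4 for monocyte differentiation, and Klf6 for inflammatory responses of macrophages, whereas Klf7 and Klf13 act in progenitors and lymphocytes. Egr1, Egr2 and Egr3 are immediate early genes. They are switched on by growth factor signals, in part through serum response factor (SRF) bound to CArG boxes near their start sites, and take part in monocyte and macrophage differentiation. Nab1 and Nab2 bind EGR proteins and repress their activity, and Nab2 is itself a known EGR target, which closes a negative feedback loop.

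Sequences are shown for 12 of the 18 regions, since they carry the motifs on which the comparison below rests. Each is a stretch of 160 bases outside annotated untranslated exons, on the plus strand of GRCm38.p6, whose chromosomes are those of mm10. Capitals mark motif letters found on either strand: TGACTCA or TGAGTCA for AP-1, TTACNNAA or TTGCNNAA for C/EBP, GAGGAAGT for PU.1, CCACACCC or CCCCACCC for the CACCC box, and the CArG box. Regions are numbered by position within each gene. The first 5 sequences come from regions that were more accessible in dKO and hold AP-1 letters, in order of gene (chr13:5837521-5837680, chr13:5845261-5845420, chr13:5886918-5887077, chr1:64078444-64078603) with the last, Egr2 region 2 (chr10:67490802-67490961), showing its C/EBP letters, as its AP-1 letters lie outside the stretch.
Klf6 region 2: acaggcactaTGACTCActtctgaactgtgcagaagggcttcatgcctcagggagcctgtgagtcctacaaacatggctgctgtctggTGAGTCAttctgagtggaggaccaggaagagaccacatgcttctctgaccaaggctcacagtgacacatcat
Klf6 region 3: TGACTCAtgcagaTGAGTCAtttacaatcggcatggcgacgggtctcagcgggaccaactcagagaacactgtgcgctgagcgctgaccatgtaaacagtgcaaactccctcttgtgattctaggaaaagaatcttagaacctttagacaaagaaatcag
Klf6 region 4: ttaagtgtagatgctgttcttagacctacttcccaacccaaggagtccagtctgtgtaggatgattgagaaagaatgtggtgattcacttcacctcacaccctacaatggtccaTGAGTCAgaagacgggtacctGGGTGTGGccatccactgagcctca
Klf7 region 1: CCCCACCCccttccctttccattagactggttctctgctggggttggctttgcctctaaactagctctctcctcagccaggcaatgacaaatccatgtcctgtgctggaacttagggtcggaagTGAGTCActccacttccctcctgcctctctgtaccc
Egr2 region 2: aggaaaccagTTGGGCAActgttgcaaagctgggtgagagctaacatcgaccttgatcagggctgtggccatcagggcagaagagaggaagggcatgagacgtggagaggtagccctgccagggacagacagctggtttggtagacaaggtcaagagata
Egr2 region 1 (chr10:67490010-67490169) is shown beside region 2 for the run of letters that both hold, and its PU.1 and C/EBP letters share 1 base.
Egr2 region 1: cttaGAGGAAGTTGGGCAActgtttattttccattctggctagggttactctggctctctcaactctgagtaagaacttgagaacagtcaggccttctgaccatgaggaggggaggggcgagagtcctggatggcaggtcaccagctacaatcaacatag
The next 5 come from regions that were less accessible in dKO and hold C/EBP letters (chr4:55530282-55530441, chr13:5817131-5817290, chr1:64126924-64127083, chr7:63925039-63925198 and chr14:70033932-70034091).
Klf4 region 1: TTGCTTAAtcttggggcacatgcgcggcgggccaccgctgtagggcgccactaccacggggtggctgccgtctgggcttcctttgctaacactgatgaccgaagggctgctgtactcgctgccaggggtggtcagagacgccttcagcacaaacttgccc
Klf6 region 1: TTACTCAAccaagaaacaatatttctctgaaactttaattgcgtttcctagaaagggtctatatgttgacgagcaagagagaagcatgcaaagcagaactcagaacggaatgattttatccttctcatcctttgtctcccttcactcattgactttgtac
Klf7 region 2: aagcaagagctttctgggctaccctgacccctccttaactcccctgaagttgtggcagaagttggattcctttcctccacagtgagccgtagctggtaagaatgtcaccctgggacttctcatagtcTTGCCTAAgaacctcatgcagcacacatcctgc
Klf13 region 1: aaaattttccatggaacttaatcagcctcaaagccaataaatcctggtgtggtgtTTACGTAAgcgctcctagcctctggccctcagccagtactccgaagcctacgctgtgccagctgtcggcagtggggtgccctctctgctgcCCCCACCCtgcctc
Egr3 region 1: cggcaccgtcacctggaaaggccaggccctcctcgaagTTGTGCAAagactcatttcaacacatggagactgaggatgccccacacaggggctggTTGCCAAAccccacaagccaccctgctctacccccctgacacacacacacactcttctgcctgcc
The last lies at a start site of Egr2 and shows a CArG box, the letters at which SRF binds (chr10:67537406-67537565).
Egr2 region 4: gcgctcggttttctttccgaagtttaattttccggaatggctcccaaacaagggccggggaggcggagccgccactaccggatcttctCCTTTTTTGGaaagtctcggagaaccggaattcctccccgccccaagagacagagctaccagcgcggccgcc

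The deposited values are log2 means of normalised reads over the 2 libraries of a group, here called the level of a region, and a change is the dKO level minus the WT level, so that a positive change means more accessible in dKO. The table gives 1 mean per group and no value per library, hence no SD and no test between replicates could be computed. It lists only regions that passed the authors' threshold on the corrected P-value, and a gene without regions has no listed change rather than a change of 0. From the lowest level, -0.15 in both groups, 1 read per library was taken to be worth about 0.901 normalised reads. Low dKO levels fell on steps of reads by this worth. Reads per library were derived from this worth, and the 95% intervals given for changes are exact intervals for the ratio of the summed reads, which cover counting error only and no biological spread. A level of 3 reads per library, a log2 mean of 1.43, was taken as the floor, and no region described at the 10 genes lay at or under it in either group. The worth of a read was not checked on WT levels. Reads per library in WT, the floor in WT and the intervals are therefore approximate. The cell lines were measured in bulk, so fewer open cells and less opening per cell cannot be told apart.

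Depth per library is not part of the table, and the study's methods give it only as an average over samples. The deleted genes went with their labels. At Cebpa, a region spanning promoter and coding sequence (chr7:35118826-35119650) had a level of 9.99 in WT and -0.15 in dKO, the lowest that occurs, and the Cebpb promoter region (chr2:167688638-167689380) went from 8.60 to 3.37. A second Cebpb region, 800 bp from a start site (chr2:167689715-167690187), went from 7.38 to -0.15. The study detected the deletion of both genes in dKO clones by PCR, so that DNA itself was removed there. How far each region reaches past the deleted DNA is not given in the sources used here. Among the progenitor and myeloid surface markers, Itgam had 4 listed regions, Fcgr2b 3, Kit 1 and Fcgr3 none, and all 8 were higher in dKO. Of all listed regions, 60.3% were higher. None of the 8 lay within 1 kb of a start site of its gene, and the Kit region was under the floor in WT (1.26). By flow cytometry the study found less CD11b, the Itgam product, on dKO cells, so these regions do not give the level of the protein. Of the markers of other cells, the hepatocyte gene Alb had 1 higher region, 41991 bp from its start site, and the T cell gene Cd3e had none. A table of changed regions cannot check the cell identity that the labels give, and the part of other cells in the results below was not tested.

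Over all 10 genes, 11 of the 18 regions were higher in dKO and 7 were lower, or 61.1% higher, against 60.3% of all 10016 listed regions. The median change was 0.81, against 0.98 for all listed regions, and the changes ran from -3.32 to 3.86. At least a 2-fold rise was listed for 8 regions and at least a 2-fold fall for 6, where 49.6% and 35.9% of all listed regions were this far up or down. By these shares the gene set as a whole was close to the background. Its genes differed in direction, however. At Egr2, 4 of 4 regions were higher, at Klf6 4 of 5, at Klf7 and Nab2 1 of 2 and 2 of 4, and the single regions of Klf4, Klf13 and Egr3 were all lower. With a window of 10 kb, 2 of 7 regions were higher and the median change was -1.23. The plot of both group means by region shows the size of each change beside its level.

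**Figure D1:**
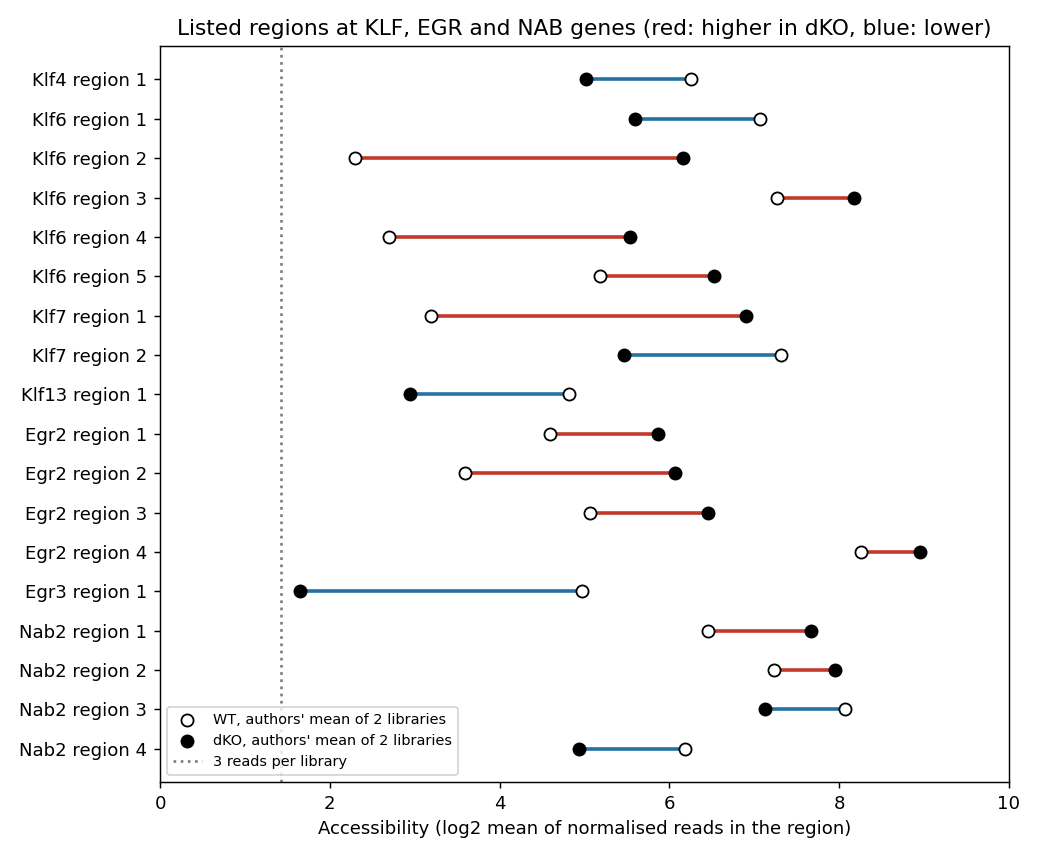
Accessibility of the 18 listed regions at the KLF, EGR and NAB genes, as the log2 mean of normalised reads in WT (open circles) and dKO (filled circles), each the authors' mean of 2 libraries. Red lines join the pair where dKO was higher (11 regions) and blue lines where it was lower (7 regions), and the dotted line at 1.43 stands for 3 reads per library. The longest lines belong to Klf6 region 2, Klf7 region 1 and Egr3 region 1.

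Among the 5 Krüppel-like factors of the set, Klf6 had the most listed regions and 2 of the 3 largest rises of the set. Klf6 (ENSMUSG00000000078.7, chr13:5861482-5870394, plus strand), a factor induced in macrophages by inflammatory signals, had 5 regions, a number that 2.0% of 21755 protein-coding genes reached or passed within the same window. None of these regions lay in the Klf6 body or at its promoter, and no other protein-coding gene lies in the window. Region 2 (chr13:5837416-5837785), in intergenic DNA 23697 bp upstream of the gene, went from 2.30 in WT to 6.16 in dKO. This is a change of 3.86 (95% counting interval 2.98 to 4.88), or 14.5-fold, from about 5.46 to about 79.3 reads per library, and 96.6% of the higher regions in the table had a smaller change.

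Region 4 (chr13:5886870-5887125) lies 25388 bp downstream of the Klf6 start, at the start site of the long noncoding RNA Gm47507. Its level was 2.70 in WT and 5.54 in dKO, a change of 2.84 (2.07 to 3.80), or 7.16-fold. The neighboring region 5 (chr13:5888154-5888714), in an intron of Gm47507, went from 5.18 to 6.52, a smaller change of 1.34 (0.97 to 1.74). Regions 2 and 4 thus had few reads in WT and were well above the floor in dKO, whereas region 5 was already open in WT.

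Region 3 (chr13:5845132-5846051), the nearest to Klf6 at 15431 bp upstream, was the most accessible of the 5 in both groups. Its level was 7.27 in WT and 8.17 in dKO, a change of 0.90 (0.71 to 1.09), which is below the median of all listed regions. Region 1 (chr13:5816792-5817631), the farthest upstream at 43851 bp, was the only one that was less accessible in dKO. It went from 7.07 to 5.59, a change of -1.48 (-1.81 to -1.15), or 2.79-fold lower. The surroundings of Klf6 thus held regions that differed in opposite directions, with the fall outermost and a 14.5-fold rise 19784 bp away from it.

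Klf7 (ENSMUSG00000025959.13, chr1:64029447-64122282, minus strand), a factor known from neurons and blood progenitors, had 2 regions with opposite changes. Region 1 (chr1:64078400-64079111), which overlaps a coding exon of Klf7 and the start of the antisense transcript Gm13748, had a level of 3.19 in WT and 6.90 in dKO. The change was 3.71 (3.07 to 4.46), or 13.1-fold, from about 10.1 to about 133 reads per library, and 95.8% of the higher regions changed less. Region 2 (chr1:64126785-64127221), in intergenic DNA 4503 bp upstream of the start site, went from 7.31 to 5.46. That is a change of -1.85 (-2.18 to -1.52), or 3.61-fold lower. In WT the upstream region had 36.3 reads per 100 bp and the exonic region 1.28, and in dKO they had 10.1 and 16.8, so that the order of the pair was reversed.

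Klf4 (ENSMUSG00000003032.8, chr4:55527143-55532466, minus strand), a driver of monocyte differentiation, had 1 region. It lies in the coding sequence (chr4:55530240-55530579), 1887 bp downstream of the 5′ end of the gene and 1191 bp from the start of the transcript Klf4-202. Its level was 6.25 in WT and 5.02 in dKO, a change of -1.23 (-1.65 to -0.82), or 2.35-fold lower, and 19.3% of the lower regions changed less. Klf13 (ENSMUSG00000052040.10, chr7:63886351-63938915, minus strand), a factor of lymphocytes and erythroid cells, also had 1 region, in an intron and 121 bp from the start of the short coding transcript Klf13-202 (chr7:63924991-63925246). It went from 4.82 to 2.94, a change of -1.88 (-2.76 to -1.10), or 3.68-fold lower, with about 8.51 reads per library left in dKO.

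Klf2 (ENSMUSG00000055148.7, chr8:72319033-72321656, plus strand), which keeps lymphocytes quiescent and restrains macrophages, had no listed region within 50 kb. The nearest one lay just outside the limit, at 50081 bp (chr8:72268206-72268952). It has Ap1m1 as its nearest protein-coding gene, and had a level of 7.79 in WT and 8.51 in dKO, a change of 0.72. Accessibility at the Klf2 gene itself was therefore not among the listed changes, and its level is not in the table.

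At the EGR genes, the regions of Egr2 and Egr3 differed in opposite directions. Egr2 (ENSMUSG00000037868.15, chr10:67535475-67542188, plus strand), also known as Krox20 and active in macrophages and myelinating cells, had 4 regions, and all were higher in dKO. As many regions or more were found around 4.39% of protein-coding genes. Region 4 (chr10:67537229-67537944), which covers a start site of Egr2 and untranslated exon sequence, had the highest level of all 18 regions in both groups. Its level was 8.26 in WT and 8.95 in dKO, a change of 0.69 (0.55 to 0.83), or 1.61-fold, and 3.86% of the higher regions changed less. The Egr2 promoter was thus open in both cell types, with about 340 and 549 reads per library.

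The other 3 regions of Egr2 lie upstream in intergenic DNA and were far less accessible than the promoter. Region 2 (chr10:67490681-67491082), 44393 bp upstream, went from 3.59 in WT to 6.07 in dKO, a change of 2.48 (1.87 to 3.11), or 5.58-fold. Its nearest annotated start site, at 6625 bp, is that of the noncoding gene Gm32255. Region 1 (chr10:67489917-67490262), separated from it by a gap of 418 bp, went from 4.59 to 5.86, a change of 1.27 (0.81 to 1.77). Region 3 (chr10:67518692-67519124), 16351 bp upstream, went from 5.07 to 6.46, a change of 1.39 (0.99 to 1.78). In WT these 3 regions had 3.0 to 7.76 reads per 100 bp, against 42.8 at the promoter, and in dKO 16.7 to 20.3, against 69.1. They became more alike in level in dKO and remained below the promoter.

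Egr3 (ENSMUSG00000033730.4, chr14:70077203-70082614, plus strand), which acts downstream of antigen and growth factor receptors, had 1 region, 43040 bp upstream of the gene (chr14:70033859-70034163). It lies in an intron of Pebp4 and of the antisense transcript Gm33524, so that its tie to Egr3 rests on distance alone. The level went from 4.97 in WT to 1.65 in dKO, a change of -3.32 (-4.69 to -2.20), or 9.99-fold lower, the largest fall at the 10 genes. With about 3.48 reads per library in dKO the value was just above the floor, and 88.6% of the lower regions changed less. Egr1 (ENSMUSG00000038418.7), the EGR factor best known from monocyte differentiation, had no listed region within 50 kb on chromosome 18. The nearest, at 67374 bp and with Kdm3b as its nearest protein-coding gene, had a level of 1.73 in WT and 4.32 in dKO.

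Of the NAB corepressors, Nab2 had 4 regions, lower at its own start sites and higher farther away. Nab2 (ENSMUSG00000025402.12, chr10:127660918-127668568, minus strand) lies among Nemp1, Stat6, Lrp1 and Myo1a, which fall in the same window. Region 3 (chr10:127666441-127667267) covers a start site of Nab2 with untranslated and coding exon sequence and went from 8.07 in WT to 7.13 in dKO. The change was -0.94 (-1.14 to -0.74), or 1.92-fold lower. Region 4 (chr10:127668102-127668366), 202 bp from the 5′ end of the gene in an intron, went from 6.18 to 4.94, a change of -1.24 (-1.67 to -0.83), or 2.36-fold lower. Nemp1 overlaps both regions, so that these values cannot be given to Nab2 alone.

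The other 2 regions in the Nab2 window were higher in dKO. Region 2 (chr10:127642493-127643313) covers a start site of Stat6, the signal transducer of interleukin 4, and went from 7.23 to 7.95, a change of 0.72 (0.52 to 0.92). Region 1 (chr10:127631350-127632285), 33196 bp from the nearest Nab2 start site and 10202 bp from Lrp1, went from 6.46 to 7.67, a change of 1.21 (0.97 to 1.46), or 2.31-fold. Both lie nearer to another gene than to Nab2. Nab1 (ENSMUSG00000002881.14, chr1:52457294-52500679, minus strand), the second corepressor, had no listed region, and the nearest lay 152687 bp away, beside Mfsd6, with a change of 1.73. In the ring from 50 to 100 kb around the 10 genes the table listed 12 further regions, 11 higher and 1 lower, against 60.3% higher of all listed regions. Of the 12, 7 lie around Egr2 and Nab2 on chromosome 10, where 82% of listed regions were higher. The nearest of these had changes of 0.72 (Klf2), 0.80 (Nab2, at 55776 bp) and 0.95 (Klf6, at 57518 bp), and the farthest inside the limit was Egr2 region 1.

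The regions were also sorted by their distance from a start site of their own gene, a division chosen after the values had been seen and given as a description. Only Egr2 and Nab2 had regions both within 2 kb and over 10 kb away. At Egr2 both kinds were higher in dKO, and at Nab2 the near ones were lower and the distant ones higher, so that within a gene the contrast rests on Nab2 alone. Of the 5 regions within 2 kb of a start site of their own gene, 4 were lower in dKO (1 at Klf4, 1 at Klf13 and 2 at Nab2) and the Egr2 promoter was higher, with a median change of -1.23. Of all 1908 listed regions within 2 kb of a protein-coding start site, 56.8% were higher. The single region between 2 and 10 kb, at Klf7, was lower. Of the 12 regions over 10 kb from a start site of their own gene, 10 were higher (83.3%), with a median change of 1.31. One of these 10, Nab2 region 2, lies on a Stat6 start site. Without it, 9 of 11 were higher, and 61.1% of the 5853 listed regions over 10 kb from any protein-coding start site were. The exceptions were Klf6 region 1 and the Egr3 region, the only ones at these genes over 10 kb away that were lower. These regions come from 7 genes, and 11 of the 12 distant ones from Klf6, Klf7, Egr2 and Nab2, so they are not independent of each other.

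**Figure D2:**
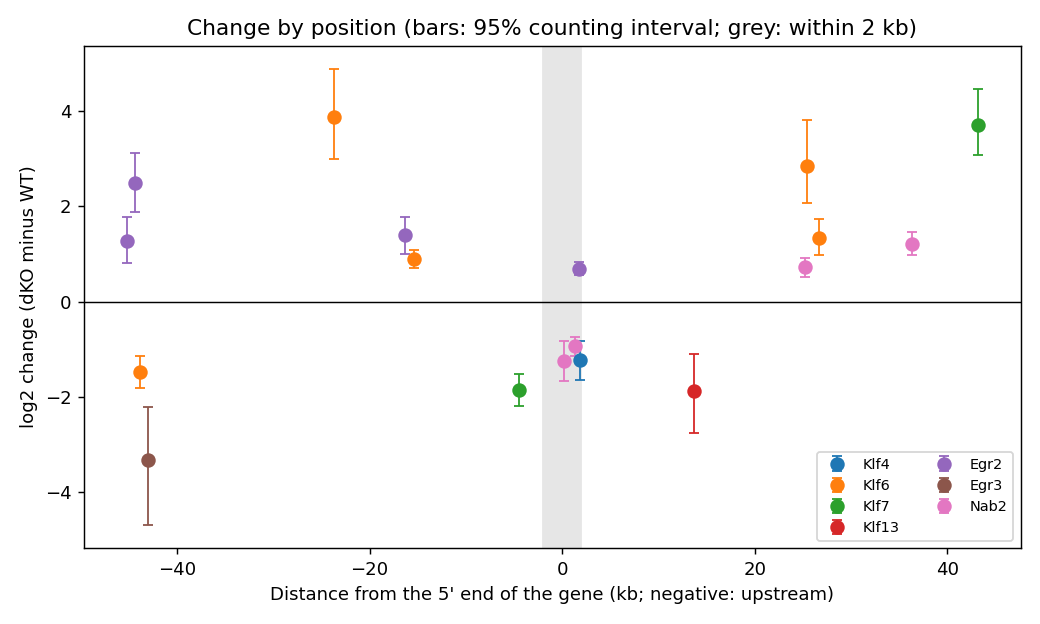
Change in accessibility (log2, dKO minus WT) of the 18 regions against the distance of the region's nearer edge from the 5′ end of the gene in kb, negative upstream in the direction of transcription. Colors give the gene, bars the 95% counting interval, and the grey band 2 kb to either side. Within the band lie Egr2 region 4 at 0.69, Klf4 region 1 at -1.23 and the Nab2 regions at -0.94 and -1.24, while the Klf13 region, 121 bp from an internal start site, is drawn at 13669 bp from the 5′ end.

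Chromosome 10 carried 8 of the 18 regions, at Egr2 and Nab2, of which 6 were higher and 2 lower. On this chromosome 82% of the 767 listed regions were higher in dKO, more than the 60.3% over all chromosomes. The other 10 regions divided evenly, 5 higher and 5 lower, with a median change of -0.16. The 4 higher regions of 4 at Egr2 are to be read against the share of its chromosome, and the part of the chromosome in the Egr2 and Nab2 values was not tested. When the median of all listed regions, 0.98, was subtracted from every change, 3 of 4 regions at Egr2, 3 of 5 at Klf6, 1 of 2 at Klf7 and 1 of 4 at Nab2 stayed above 0. The 3 regions that changed sign were Klf6 region 3, the Egr2 promoter and Nab2 region 2.

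**Figure D3:**
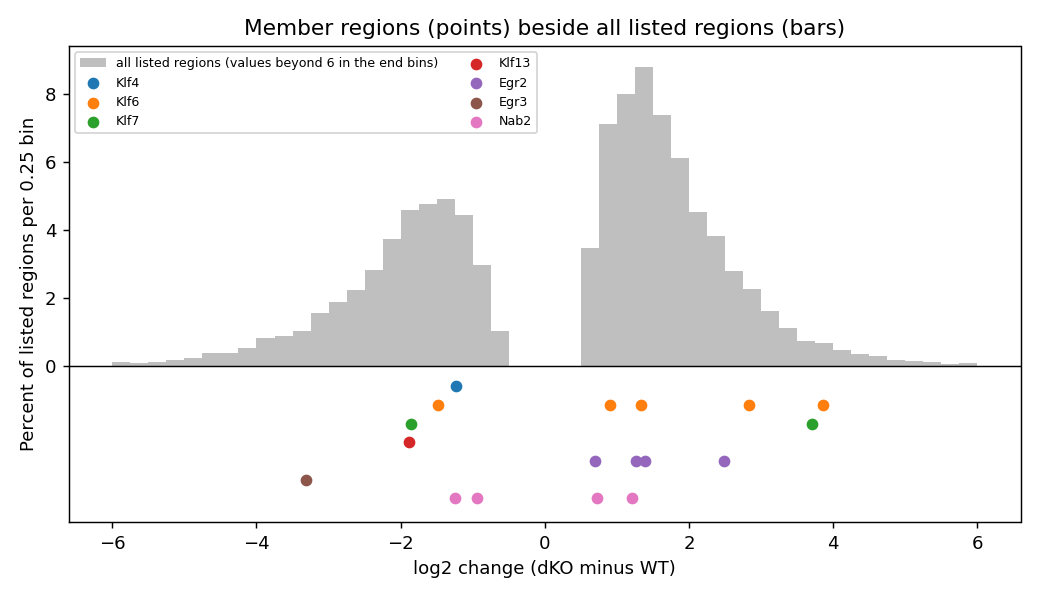
Distribution of the change (log2, dKO minus WT) over all 10016 listed regions, as percent of regions per bin (grey bars), with the 18 regions of the 7 genes as points below the axis, 1 row and color per gene. No listed region lies near 0, since the table lists changed regions only. The points of Klf6 and Klf7 reach far into the upper tail, the Egr3 point into the lower one, and those of Nab2 stay near the inner edges.

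The sequences of the 18 regions were compared with those of all listed regions by motif letters. Over the whole region, AP-1 letters, at which FOS and JUN proteins bind, were found in 5 of the 18 regions (27.8%), against 25.3% of all listed regions. All 5 were among the 11 higher regions, and none of the 7 lower ones held them, against 36.1% of the higher regions in the table and 8.89% of the lower ones. They were Klf6 regions 2, 3 and 4, Klf7 region 1 and Egr2 region 2, which include the 4 largest rises of the set. Klf6 region 3 held 3 such sites and Klf6 region 2 held 2. In the central 200 bp, 2 regions held them (11.1%), against 17.9% of all, and both were higher in dKO.

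C/EBP letters are those of the C/EBP family, to which the deleted factors and the C/EBPε reported in dKO clones belong. These letters were found in 8 of the 18 regions (44.4%), against 42.9% of all listed regions. They stood in 5 of 7 regions that were lower in dKO and in 3 of 11 that were higher, against 54.3% of the lower regions in the table and 35.3% of the higher ones. In the central 200 bp, 7 regions held them (38.9%, against 28.4% of all), 4 lower and 3 higher. Over the whole region, the 5 lower regions were those of Klf4, Klf13 and Egr3, Klf6 region 1 and Klf7 region 2, and the Nab2 start sites held none. The Klf13 letters TTACGTAA read the same on both strands and lay 24 bp from the region's centre. Egr2 regions 1 and 2 shared the 15-base run agTTGGGCAActgtt with the C/EBP letters in its middle, although both were higher in dKO. The longest runs shared by other pairs of regions of the same gene had 8 to 13 bases.

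The letters of the factors of the set and of their regulators were searched in the same way. CACCC boxes, which KLF proteins bind, were found in 3 regions in the central 200 bp (16.7%, against 8.12% of all listed regions), at Klf6 regions 4 and 5 and at Klf13. Over the whole region, Klf7 region 1 and Nab2 region 4 were added, which gave 5 regions (27.8%, against 15.8%). The EGR motif (GCGNGGGCG) was found in no central stretch, against 1.12% of all listed regions. Over the whole region it was found in Nab2 region 3 (5.56%, against 2.56%), at chr10:127666966-127666974 on the minus strand, where an exon of Nemp1 is also annotated. The CArG box was found in 1 region in both searches, the Egr2 promoter, against 0.988% of all listed regions in the central 200 bp and 2.25% over the whole region. The promoter held 1 site in the central stretch (chr10:67537494-67537503) and another outside it (chr10:67537797-67537806). PU.1 letters were found in the central stretch of Egr2 region 1 (5.56%, against 9.22%) and, over the whole region, in Nab2 region 2 as well (11.1%, against 13.2%). RUNX letters (AACCACA) were found in the central stretch of Nab2 region 2 (5.56%, against 11.9%) and, over the whole region, in Nab2 region 1 as well (11.1%, against 19.3%). The letters describe the sequence and do not show that a protein was bound. The GC content of the 18 regions had a median of 49.9% and ran from 36.7% to 69.2%, against a median of 49.0% for all listed regions.

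RefSeq promoters, taken as 250 bases before to 50 after the start, were at hand for 8 of the 10 genes and not for Egr1 and Egr3. The EGR motif stood in those of Klf2, Klf4 and Nab1 and in 5.55% of all 32851 promoters. The CACCC box stood in those of Klf7 and Nab1 and in 13.0% of all, and the CArG box in 4 of the 5 promoters of Egr2 and in 1.63% of all. None of the 8 genes had C/EBP, AP-1, PU.1 or RUNX letters there, which 18.5%, 5.2%, 3.2% and 5.27% of all promoters held. Listed regions overlapped the promoters of Egr2 and Nab2 and no others.

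Related genes were drawn from lists by the same 50 kb rule, to place the 10 genes among their family and pathway. Of 12 further KLF genes, 6 had listed regions, and 12 of their 16 regions were lower in dKO (median change -1.66). Klf15, a regulator of metabolism and glucocorticoid responses, had 8 regions, all lower, with changes from -3.95 to -1.52, 1 of them at its own start site (chr6:90462358-90462755, from 5.41 to 3.81). Only 2 of the 8 lay within 10 kb of the gene. The region with the change of -3.95 lay 47276 bp from the start site and had a dKO level of 1.65, just above the floor. The start site of Klf8 (chrX:153359386-153359769) went from 5.63 to 1.65, also just above the floor, a change of -3.98. Klf10, a TGF-β–induced factor, had 2 higher regions (0.99 and 1.21), whereas Klf3 (-0.76 and 1.50) and Klf16 (-1.13 and 0.65) had 1 of each direction. Without the 8 regions of Klf15, 4 of 8 further KLF regions were higher.

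Of the SP genes, close relatives of the KLF genes, and Egr4, 4 of 5 had regions, and 7 of 8 regions were higher (median 1.34). The start site of Egr4 (chr6:85513550-85513926), a further EGR gene, went from 3.88 to 5.92, a change of 2.04. Sp2 had 3 higher regions, from 0.85 to 3.62. The largest change was 43489 bp from the start site and began at a WT level of 1.44, just above the floor. Sp1 had 2 higher regions and Sp3 had 1 of each direction (-3.80 and 1.60), the lower one at the floor in dKO. The start sites of Egr2 and Egr4 were thus both more accessible in dKO, while Egr1 and Egr3 had no listed region at a start site.

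The pathway that induces EGR genes was followed through SRF, its partners of the ELK and MRTF families, and other immediate early genes. Of 6 genes for SRF and its partners, Elk3 had 4 regions, all higher (1.09 to 1.69), on chromosome 10, where 82% of listed regions were higher. Elk1 had 3, all higher (0.91 to 1.10), and Mrtfb had 4 higher and 2 lower. Srf, Elk4 and Mrtfa had none. Of 14 immediate early genes 11 had regions, and 24 of their 28 regions were higher (85.7%, median 1.12). The phosphatase gene Dusp1, which ends MAP kinase signals, had 5 higher regions and 1 lower one. The nuclear receptor gene Nr4a1 had 4 regions, all higher, including its start site (chr15:101253936-101254272), which went from 4.40 to 6.18, a change of 1.78. The AP-1 gene Fosl1 had a region 698 bp from its start site that went from 6.09 to 7.25, a change of 1.16. Fosb, Ier3 and Ier5 had 3 higher regions each, and Nr4a3 and Jun had 1 lower region each (-3.06 and -0.92).

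On the side of repression, 4 of 8 genes for corepressors that act with NAB or KLF proteins, or for ubiquitin ligases of KLF proteins, had regions, and 4 of 5 regions were lower (median -0.83). Chd3 and Chd4, chromatin remodelers of the NuRD complex to which NAB2 binds, had 2 lower regions (-1.20 and -0.76) and 1 lower region (-0.83), and Ctbp2 had 1 (-2.73). The 1 higher region was at Fbxw7 (1.88), a ligase that marks KLF proteins for degradation. Of 10 textbook targets of KLF and EGR factors, 6 had regions, 8 higher and 4 lower (median 0.93). Nos3, the endothelial nitric oxide synthase gene that KLF2 activates, had 1 higher and 2 lower regions. The start site of Thbd, the thrombomodulin gene and a KLF2 target, went from 5.39 to 6.38 (chr2:148407801-148408488), a change of 0.99, and a region 19492 bp away had a change of -1.46. Cdkn1a, the cell cycle inhibitor gene p21 and a target of KLF4 and KLF6, had 2 higher regions (0.73 and 3.87). The lists are small, and their counts are set beside the 60.3% of all listed regions without a test.

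**Figure D4:**
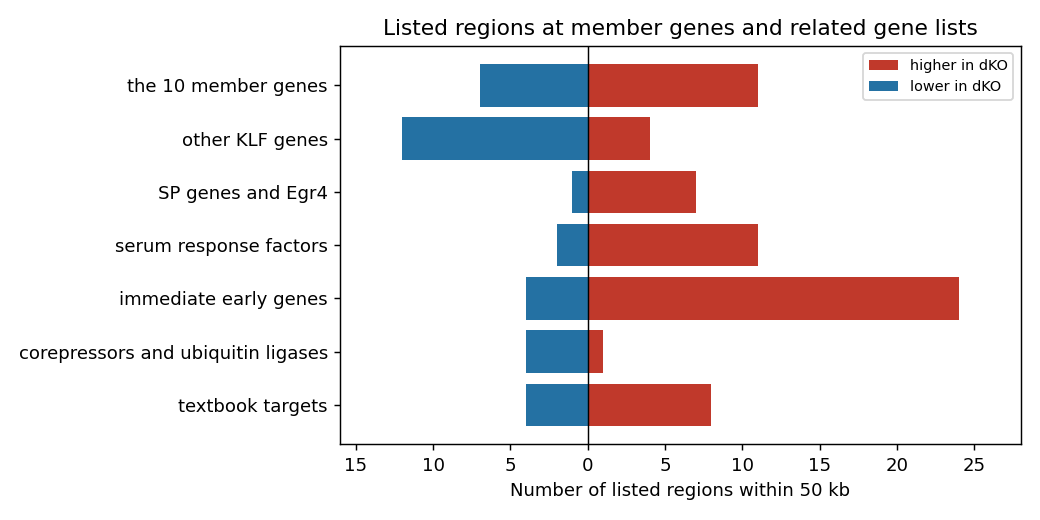
Number of listed regions within 50 kb of the 10 genes and of the related gene lists, higher in dKO to the right (red) and lower to the left (blue). The immediate early genes have 24 higher and 4 lower regions, the further KLF genes 4 higher and 12 lower, and the 10 genes 11 and 7.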

How the data were processed

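ATAC-seq was performed on 6 libraries in 3 groups of 2. The authors preprocessed reads with PiGx, aligned them to mm10 with Bowtie 2, called peaks with MACS2 and compared groups with DiffBind 2.14.0. The treatment of duplicate reads, which could raise strong regions, and of the Tn5 offset, which could shift region edges, is not given in the sources used here. The authors deposited log2 mean normalised reads per region for WT and for dKO, each over 2 libraries. The depth of single libraries is not in the table, and the study's methods give only an average over samples. The 3 columns of the authors' own comparison (fold change, p-value and FDR) were not used. Both deposited files were identical, so that 1 distinct table was read, and dKO-LAP* was not analysed here.

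Changes were computed as dKO minus WT. Regions were assigned by overlap with GENCODE M21 gene bodies and 50 kb on each side. Low dKO values fell on steps of reads: 100% of 281 dKO values up to 3 normalised reads lay within 0.1 of a read of a step, in steps of 1 read in either library. Low WT values were not checked in this way. With group means only, no test was run, although the labels give replicates. Motifs were searched as letters in the GRCm38.p6 sequence (annotation and motif scripts in Python 3.11.15 with pandas 2.3.3, numpy 2.4.6 and scipy 1.17.1, plots in matplotlib 3.10.9), which was tested on simulated data. The members and gene lists were chosen with earlier results of these data known. All 10 genes were to be named, each with its region nearest to a start site and its largest rise and fall. Of the other lists, up to 3 genes with the most regions and those with a region within 1 kb of a start site were to be named, and other genes named were chosen after their values were seen. Alternatives were other windows, other assignments to genes, stricter levels, centring and other motif windows. Those without chromosome 10, by nearest coding start site within the window, and by other start site distances were chosen after the data were seen. Some markers of other cells are not reported here.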

Additional observations from a re-analysis of the deposited data

How the results depend on the processing

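The count and direction for the 10 genes depended on the window. The main values were 18 regions, 11 higher in dKO, with a median change of 0.81. A window of 10 kb left 7 regions, 2 higher, with a median of -1.23, and the same values followed when regions were given to the nearest start site of any gene. Gene bodies alone held 6 regions, 2 higher, with a median of -1.08. A window of 100 kb held 30 regions, 22 higher, with a median of 1.12. By the nearest protein-coding start site there were 26 regions, 18 higher, with a median of 1.30. Without chromosome 10, where Egr2 and Nab2 lie, 10 regions were left, 5 higher, with a median of -0.16. Centring on all listed regions left 8 higher and a median of -0.17, and counting every gene once gave a median of -0.11, with 3 of 7 genes above 0. The cause of these differences was not tested. A change of at least 2-fold (14 regions), a level above 3 reads per library (18), a mean above the lower quartile (16) and a member as nearest coding gene within the window (16) kept the median between 0.80 and 1.24. The count of lower regions near start sites was 4 of 5 at 2 kb, 5 of 6 at 5 kb and 3 of 4 at 2 kb from the 5′ end of the gene. From the central 200 bp to 400 bp and to whole regions, the regions with letters numbered 7, 9 and 8 for C/EBP, 2, 4 and 5 for AP-1, 3, 4 and 5 for the CACCC box, 1, 1 and 2 for PU.1 and for RUNX, and 0, 1 and 1 for EGR, where 400 bp reach past the edges of the narrower regions.

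No paired analysis was possible because each group has 1 mean over both libraries. For the same reason no library was left out in turn. Low depth bears most on the Egr3 region, with about 3.48 reads per library in dKO.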
